A study of Mus musculus with 6 samples.

Results

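The genes described here are the enzymes of the pentose phosphate pathway and other enzymes that make NADPH, as measured in mouse jejunal mucosa. Of 10 such genes, 9 are described: the oxidative branch genes Pgls and Pgd, the non-oxidative branch genes Rpia, Rpe, Tkt and Taldo1, the cytosolic genes Me1 and Idh1, and the mitochondrial gene Nnt. A gene was taken as measured where the array annotation gave a row to its symbol alone. This held for these 9 among 19938 genes tested in all, and the other gene was not analysed here. Me1 alone among these genes had several rows, and its brightest row was read.

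Mucosa was scraped from the jejunum of C57/BL mice aged 8 to 10 weeks, kept on regular chow with free access to food and water in a daily cycle of light and dark. One group held 3 arrays of ISR2 mice, a transgenic line made to overactivate the transcription factor SREBP2 in the intestine, and the other held 3 arrays of their wild type littermates. The sources used here give neither the promoter nor the form of the transgene, nor the C57 substrain. Values are log2 expression values from RMA, so a difference of 1 is a 2-fold change. Whether the arrays stand for separate mice is not stated in the labels, and p-values then measure only the spread between these samples, which may be technical. The number of arrays limits the precision.

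NADPH carries the reducing power that fatty acid and sterol synthesis consume and that glutathione and thioredoxin reductases use against oxidants. The oxidative branch of the pentose phosphate pathway burns glucose 6-phosphate to ribulose 5-phosphate and yields NADPH, in part at 6-phosphogluconate dehydrogenase. The non-oxidative branch interconverts the resulting sugars and returns surplus pentose to glycolysis. Cytosolic malic enzyme and cytosolic isocitrate dehydrogenase make NADPH outside the pathway, and the transhydrogenase of the inner mitochondrial membrane makes it inside mitochondria. In lipid-making tissues such as liver and fat, several of these genes are known targets of SREBP factors.

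Of the 9 genes measured, 5 rose in ISR2 mucosa: Me1, Pgd, Tkt, Idh1 and Taldo1. Rises made up 1.79% of all genes tested, and calls in either direction 3.02% (limma, adjusted p under 0.05). The remaining 4, Pgls, Rpia, Rpe and Nnt, did not pass, and 0 of the 9 fell, also at an unadjusted p of 0.05. The median log2 change of the 9 was 0.71, beside -0.06 over all genes tested. Me1 stood apart by size, 9.30-fold, while the other 4 rises lay between 1.64-fold and 2.20-fold. In 6 of the 9 genes all ISR2 arrays lay above all wild type arrays, which held for 5.87% of all genes tested; separation in either direction held for 19.8%. Me1, Pgd and Idh1 were called in all 16 alternative fits, whereas Tkt was called in 12 and Taldo1 in 10. These 16 include a fit without both wild type replicate 3 and ISR2 replicate 2. That fit was chosen after seeing the values, and all 5 genes were called in it, so it adds no support.

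**Figure D1:**
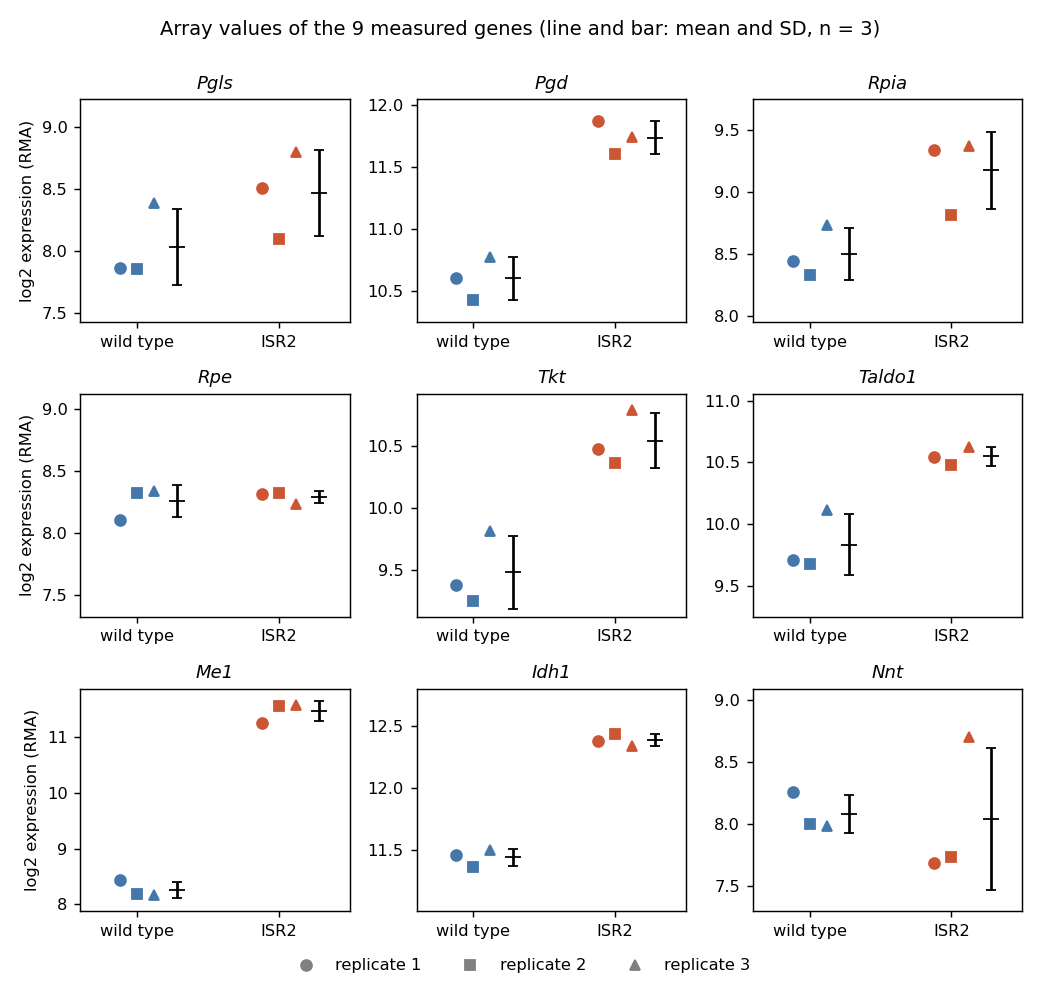
The log2 expression value of each of the 9 measured genes on each array (vertical axis, RMA scale; blue, wild type; red, ISR2; marker shape, replicate number), with the mean and SD of each group beside the points (n = 3). The groups are separate for Pgd, Rpia, Tkt, Taldo1, Me1 and Idh1 and overlap for Pgls, Rpe and Nnt; the Me1 panel spans a wider range than the others.

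The promoters of the 5 genes that rose are shown because these genes moved in the same direction. The windows come from RefSeq on GRCm38.p6 and run from 250 bases before to 50 bases after a transcription start, 5′ to 3′ along the gene; for genes with 2 starts the upstream one is shown. Of the 9 measured genes, 8 had such a window. Capitals mark the letters of 5 motifs searched on both strands: TCACNCCAC, a form of the sterol regulatory element, CACGTG, the palindromic E-box, CCAAT, the CCAAT box, GGGCGG, the GC box, and TGACNNNGC, the core of the antioxidant response element. In Tkt a pair of GC box matches shares a base.
Me1, chr9:86695865-86696164, minus strand: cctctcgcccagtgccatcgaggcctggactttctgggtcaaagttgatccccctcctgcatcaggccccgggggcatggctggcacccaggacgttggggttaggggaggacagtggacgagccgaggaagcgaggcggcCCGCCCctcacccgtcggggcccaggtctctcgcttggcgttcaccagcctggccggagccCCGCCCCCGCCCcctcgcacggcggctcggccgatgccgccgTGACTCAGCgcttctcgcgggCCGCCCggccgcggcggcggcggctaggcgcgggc
Pgd, chr4:149166656-149166955, minus strand: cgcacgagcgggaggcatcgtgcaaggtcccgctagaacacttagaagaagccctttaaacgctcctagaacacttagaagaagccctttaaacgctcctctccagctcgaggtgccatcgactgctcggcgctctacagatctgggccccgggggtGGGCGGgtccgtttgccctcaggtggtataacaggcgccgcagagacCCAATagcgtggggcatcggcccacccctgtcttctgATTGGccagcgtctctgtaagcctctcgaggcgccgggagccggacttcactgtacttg
Tkt, chr14:30548881-30549180, plus strand: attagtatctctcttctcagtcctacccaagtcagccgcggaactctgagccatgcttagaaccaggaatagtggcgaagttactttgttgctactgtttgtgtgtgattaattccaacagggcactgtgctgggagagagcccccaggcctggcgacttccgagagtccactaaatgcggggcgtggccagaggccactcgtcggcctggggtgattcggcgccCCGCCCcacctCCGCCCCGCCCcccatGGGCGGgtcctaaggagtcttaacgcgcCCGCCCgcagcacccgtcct
Taldo1, chr7:141391910-141392209, plus strand: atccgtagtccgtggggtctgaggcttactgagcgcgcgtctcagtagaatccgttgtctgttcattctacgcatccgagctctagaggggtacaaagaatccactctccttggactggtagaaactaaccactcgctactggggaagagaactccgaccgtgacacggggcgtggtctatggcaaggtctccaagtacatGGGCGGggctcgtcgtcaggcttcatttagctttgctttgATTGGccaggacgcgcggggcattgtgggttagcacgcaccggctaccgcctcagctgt
Idh1, chr1:65186430-65186729, minus strand: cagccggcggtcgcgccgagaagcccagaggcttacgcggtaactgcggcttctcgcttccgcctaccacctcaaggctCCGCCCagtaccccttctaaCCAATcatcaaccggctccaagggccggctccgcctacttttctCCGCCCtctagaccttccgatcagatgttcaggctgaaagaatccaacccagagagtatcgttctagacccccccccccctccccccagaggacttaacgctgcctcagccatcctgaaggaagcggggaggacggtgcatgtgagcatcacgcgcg

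All 5 of these windows held a GC box, as did those of Pgls, Rpia and Rpe, which did not pass, and 49.2% of the 19177 windows of tested genes. A CCAAT box was found in those of Pgd, Taldo1 and Idh1 (37.4% of all such windows), as it was in the window of Rpe, which did not pass. Among the printed windows only that of Me1 held the antioxidant response element core (13.2% of windows), as TGACTCAGC starting 6 bases before the start site. The downstream window of Pgd, not printed, held this core too, so it was in 2 of the 11 windows of the measured genes. It was also in 4 of the 9 windows of NADPH-using lipid synthesis genes. Neither TCACNCCAC nor CACGTG was found in any of the 11 windows of the measured genes. TCACNCCAC was also missing from the 9 windows of 7 NADPH-using lipid synthesis genes described further on, all of which rose; Sqle and Fdft1 of that list had no window. It occurs in 1.18% of windows of tested genes. A match is a description of letters, and a missing match says only that these letters are not in this window.

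The oxidative branch was represented by Pgd and Pgls. Pgd encodes 6-phosphogluconate dehydrogenase, which makes NADPH and releases carbon dioxide at the last step of this branch (probe set 10518570). Its log2 expression was 10.60, 10.42 and 10.77 in wild type replicates 1, 2 and 3, and 11.87, 11.60 and 11.74 in ISR2 replicates 1, 2 and 3. The groups did not overlap, and the lowest ISR2 array was replicate 2. Pgd rose 2.20-fold, a log2 change of 1.14 ± 0.14 (SE, n = 3 per group; adjusted p = 0.00222). Without each array in turn the change was 1.05 to 1.23 and the call held every time.

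Pgls encodes 6-phosphogluconolactonase, which opens the ring of 6-phosphogluconolactone (probe set 10572663). Its values were 7.86, 7.85 and 8.39 in the wild type replicates and 8.51, 8.10 and 8.80 in the ISR2 replicates, in order. The groups overlapped, since wild type replicate 3 lay above ISR2 replicate 2. The log2 change of 0.43 ± 0.21 (SE) did not pass (adjusted p = 0.441), and its 95% interval ran from -0.04 to 0.91.

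Of the 4 genes of the non-oxidative branch, 2 rose and 2 did not pass. Tkt encodes transketolase, which moves carbon pairs between sugar phosphates (probe set 10413542). Its log2 expression was 9.38, 9.25 and 9.81 in the wild type replicates and 10.48, 10.36 and 10.79 in the ISR2 replicates. All ISR2 arrays lay above all wild type arrays, and replicate 3 was the highest of its group in both. Tkt rose 2.09-fold (log2 change 1.07 ± 0.18, SE; adjusted p = 0.0130). The adjusted p passed 0.05 on leaving out wild type replicate 1 (adjusted p = 0.0751), wild type replicate 2 (0.0564) or ISR2 replicate 1 (0.0604), so the call was lost, with log2 changes of 0.95 to 1.10 in those 3 fits.

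Taldo1 encodes transaldolase, which works beside transketolase in returning pentose carbon to glycolysis (probe set 10558903). Its values were 9.71, 9.68 and 10.12 in wild type mucosa and 10.54, 10.48 and 10.63 in ISR2 mucosa. The groups were separate, and the wild type arrays were spread more widely (SD 0.25) than the ISR2 arrays (SD 0.08). Taldo1 rose 1.64-fold (log2 change 0.71 ± 0.15, SE; adjusted p = 0.0381). Its call held in 1 of the 6 fits without 1 array, that without wild type replicate 3; the adjusted p was 0.055 to 0.179 in the other 5, which left out wild type replicate 1, wild type replicate 2 or any of the ISR2 replicates.

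Rpia encodes ribose 5-phosphate isomerase, which makes the ribose used for nucleotides (probe set 10545255). The wild type arrays stood at 8.44, 8.33 and 8.74 and the ISR2 arrays at 9.34, 8.82 and 9.37. The groups did not overlap, but ISR2 replicate 2 was only slightly above wild type replicate 3. The log2 change of 0.67 ± 0.18 (SE; 95% interval 0.26 to 1.09) did not pass after adjustment over all genes (adjusted p = 0.113). Without ISR2 replicate 2 it was 0.85 and passed (adjusted p = 0.0234).

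Rpe encodes ribulose 5-phosphate epimerase, which sends pentose toward transketolase (probe set 10347106). It stood at 8.11, 8.33 and 8.34 in the wild type replicates and at 8.32, 8.33 and 8.23 in the ISR2 replicates. The groups overlapped throughout, and the log2 change was 0.035 ± 0.12 (SE; adjusted p = 0.948). Its 95% interval, -0.25 to 0.32, does not reach the changes measured for Pgd, Tkt, Taldo1 or Rpia, but overlaps the interval of Rpia (0.26 to 1.09). Differences between these genes were not tested. The change was -0.040 without wild type replicate 1.

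**Figure D2:**
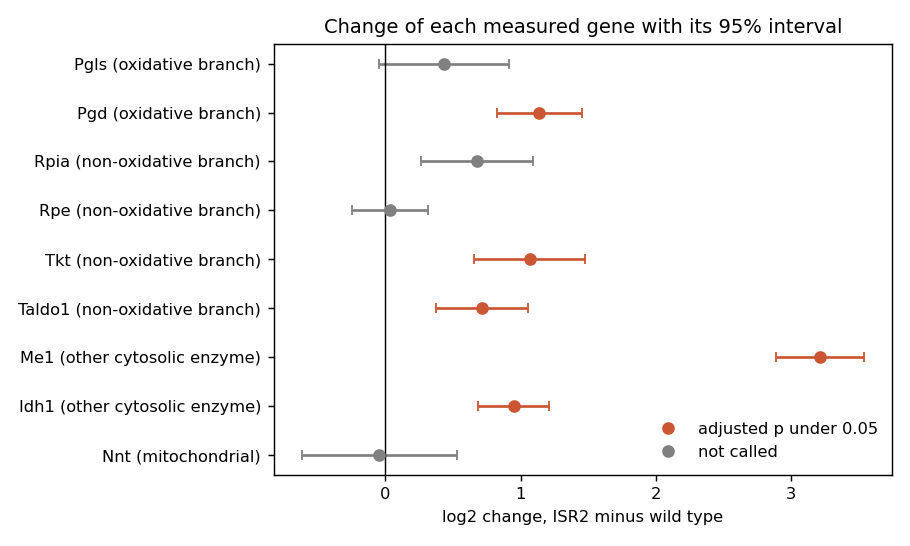
The log2 change of each measured gene, ISR2 minus wild type (horizontal axis), with its 95% interval from limma (bars; 3 arrays per group); red points passed an adjusted p of 0.05 and grey points did not. Me1 lies at 3.22, Pgd, Tkt, Idh1 and Taldo1 between 0.71 and 1.14, and the intervals of Pgls, Rpe and Nnt include 0.

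Outside the pathway, both cytosolic NADPH enzymes rose. Me1 encodes cytosolic malic enzyme, which turns malate to pyruvate and makes NADPH beside the export of citrate from mitochondria. Its log2 expression was 8.43, 8.18 and 8.16 in the wild type replicates and 11.27, 11.57 and 11.59 in the ISR2 replicates (probe set 10595480). Every ISR2 array was far above every wild type array, relative to SDs of 0.15 and 0.18. The log2 change was 3.22 ± 0.14 (SE; adjusted p = 2.9e-06), number 26 by size among the 356 genes that rose. A second probe set of Me1, 10405753, gave 7.77, 7.56 and 7.66 in wild type and 10.92, 11.25 and 11.30 in ISR2 mucosa. It gave an 11.3-fold difference (log2 change 3.49 ± 0.15, SE; adjusted p = 7.9e-05 over all rows of the table), so the 2 probe sets gave changes of like size.

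Idh1 encodes the cytosolic, NADP-linked isocitrate dehydrogenase (probe set 10355214). It stood at 11.46, 11.37 and 11.50 in the wild type replicates and at 12.39, 12.44 and 12.34 in the ISR2 replicates. The groups were separate and each was tight, with SDs of 0.07 and 0.05. Idh1 rose 1.93-fold (log2 change 0.95 ± 0.12, SE; adjusted p = 0.00222), and the call held without each array in turn (0.91 to 0.98). Unlike most of the pentose phosphate genes, Idh1 and Me1 were not lowest in ISR2 replicate 2.

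Nnt encodes the mitochondrial nicotinamide nucleotide transhydrogenase, which uses the proton gradient to make NADPH from NADH; the C57BL/6J substrain is known to carry a deletion in this gene (probe set 10412394). Its values were 8.26, 8.00 and 7.98 in wild type mucosa and 7.69, 7.73 and 8.70 in ISR2 mucosa. ISR2 replicate 3 was the highest of all 6 arrays, while the other ISR2 arrays were the lowest of all. The mean log2 change was -0.044 ± 0.25 (SE; adjusted p = 0.97; 95% interval -0.62 to 0.53), with SDs of 0.16 in wild type and 0.57 in ISR2. Without ISR2 replicate 3 it was -0.37 (adjusted p = 0.382), without ISR2 replicate 1 it was 0.13, and after centring each array on its median 0.0017, so Nnt had no settled direction. The Nnt genotype of the mice is not stated in the labels.

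Across the pentose phosphate genes the same arrays tended to be high or low. Wild type replicate 3 was the highest wild type array in 6 of 6 of them, and ISR2 replicate 2 was the lowest ISR2 array in 5 of 6, the exception being Rpe. Wild type replicate 2 was the lowest wild type array in 5 of 6. ISR2 replicate 3 was the highest ISR2 array in 4 of 6. Wild type replicate 3 and ISR2 replicate 2 thus lay on the sides that narrow the difference between the groups. Wild type replicate 2 and ISR2 replicate 3 lay on the sides that widen it. Of the 13 marker lists, 4 had their highest wild type mean in replicate 3 and their lowest ISR2 mean in replicate 2: those of stem and cycling, Paneth, enteroendocrine and myeloid cells. For stem and cycling cells (7 measured, of which 0 passed in limma and 1 was higher at an unadjusted p of 0.05) the mean log2 value was 7.80, 8.23 and 8.66 in wild type replicates 1, 2 and 3 and 8.42, 7.65 and 8.57 in the ISR2 replicates. Within that list Pcna went the other way, highest in replicate 2 of both groups. For Paneth cells the means were 10.21, 10.69 and 10.91 in wild type and 10.30, 9.28 and 10.44 in ISR2 mucosa. Smooth muscle genes were high in replicate 2 of both groups, the arrays in which most pentose phosphate genes were lowest. Acta2, smooth muscle actin, stood at 8.16, 12.14 and 9.38 in wild type and at 9.36, 11.38 and 9.33 in ISR2 mucosa, and the mean of the stroma list was 7.49, 9.58 and 7.96 in wild type and 8.13, 9.02 and 8.13 in ISR2 mucosa. The ranges of all these lists overlapped between the groups. In a further limma fit, wild type replicate 3 and ISR2 replicate 2 were both left out, a choice made after seeing the values. In it 7 of the 9 genes rose, Pgls (log2 change 0.80, adjusted p = 0.0349) and Rpia (0.97, adjusted p = 0.00972) among them. For Pgls and Rpia these were the highest wild type array and the lowest ISR2 array. Leaving them out could only widen the difference, so these added calls give no support. The part of cell composition in this pattern was not tested.

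**Figure D3:**
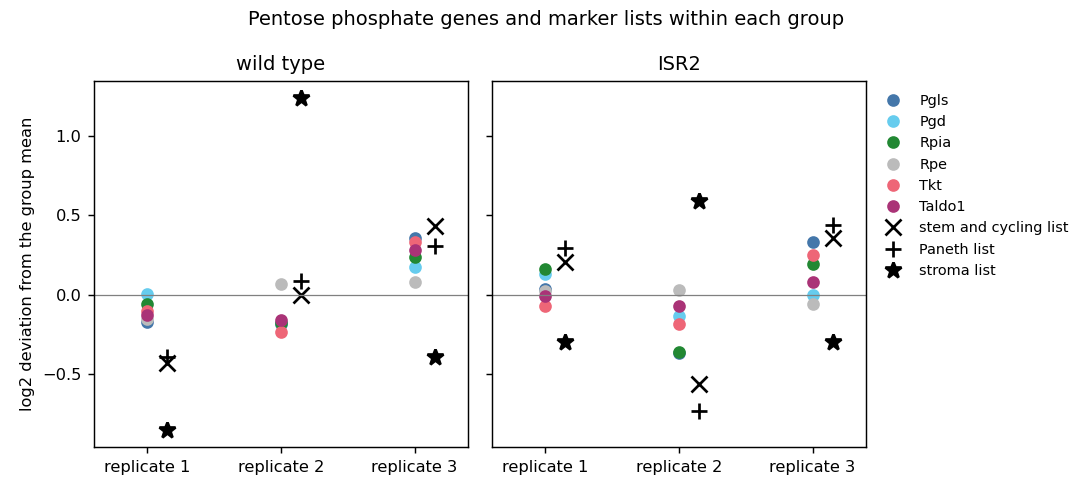
The deviation of each pentose phosphate gene from its group mean on each array (vertical axis, log2; left, wild type; right, ISR2; coloured points, genes), with the means of the stem and cycling (crosses), Paneth (plus signs) and stroma (stars) marker lists treated in the same way. All 6 genes are highest in wild type replicate 3 and 5 of the 6 are lowest in ISR2 replicate 2, as are the stem and cycling and Paneth lists. The mean of the stroma list is highest in replicate 2 of both groups, as are its smooth muscle genes. Its genes Col1a1, Col3a1 and Pecam1, not drawn singly, are lowest in ISR2 replicate 2.

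Other facts of these arrays touch the results. Srebf2, the gene of the overactivated factor, was 9.04, 9.15 and 9.50 in wild type and 11.02, 10.85 and 11.16 in ISR2 mucosa. The mean log2 value of the enterocyte markers was 13.09 to 13.14 in wild type and 12.71 to 12.94 in ISR2 mucosa. Of the 7 measured, 1, Alpi, fell, a call lost after median centring and on leaving out any array except ISR2 replicate 2, without which 2 fell. The list of T cell and intraepithelial lymphocyte markers was lower in ISR2 in 8 of 8 genes (mean 7.70 to 8.30 against 6.64 to 7.32), and 5 fell; without 1 array at a time 3 to 5 fell, the 3 being reached by leaving out ISR2 replicate 3 or wild type replicate 1 or 2. The goblet list was also lower in ISR2 (12.33 to 12.58 against 12.12 to 12.24), with 1 of 6, Spink4, called, a call lost after median centring and on leaving out any array. The tuft list was lower too (6.53 to 6.59 against 6.33 to 6.46), with 0 of 4 called and 1 at an unadjusted p of 0.05. Of the myeloid list 1 of 7, Cd14, rose, while the ranges of its mean overlapped. The B and plasma cell, stroma, Paneth, enteroendocrine, pancreatic acinar, adipocyte and erythrocyte lists had 0 calls in limma and ranges that overlapped between the groups; at an unadjusted p of 0.05, 3 Paneth, 1 B and plasma cell and 1 adipocyte gene were lower. No marker had a value of 0, and the deposited values carry no detection call. In whole mucosa, fewer cells of a type and less RNA per cell cannot be told apart, and the part of these shifts in the changes of the NADPH genes was not tested.

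The relatives of these genes held no call. Counts in this and the following lists stand beside 1.79% of all genes tested that rose and 1.23% that fell. Of 12 measured relatives, 0 passed in limma, with 1 higher (G6pd2) and 1 lower (Me2) at an unadjusted p of 0.05. Their median log2 change was -0.06, and with array weights 1 rose. G6pd2 was at 0.40 ± 0.14 (SE, adjusted p = 0.234) with separate groups. Me2, the NAD-linked malic enzyme of mitochondria, stood at 10.85 ± 0.08 in wild type and 10.44 ± 0.07 in ISR2 mucosa (mean ± SD, n = 3), a log2 change of -0.41 ± 0.12 (SE; adjusted p = 0.143). Me3, the NADP-linked mitochondrial form, changed by -0.12 and Idh2, the mitochondrial NADP-linked isocitrate dehydrogenase, by 0.07. The subunits of the NAD-linked isocitrate dehydrogenase of the citric acid cycle, Idh3a, Idh3b and Idh3g, lay at -0.07, -0.10 and -0.07. H6pd, which runs the oxidative steps inside the endoplasmic reticulum, was at 0.24 (adjusted p = 0.59).

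Differences between relatives were also taken within each array, where any scaling of the array cancels. The log2 value of Me1 minus that of Me2 was -2.47, -2.58 and -2.71 in the wild type replicates and 0.82, 1.21 and 1.09 in the ISR2 replicates. The shift between groups was 3.63 for Me1 against Me2, 3.34 for Me1 against Me3, 0.88 for Idh1 against Idh2 and 1.04 for Tkt against Tktl1. In each of these 4 pairs the groups were separate, and the exact two-sided permutation test gave p = 0.1, the smallest that 3 arrays against 3 allow, also after Benjamini-Hochberg adjustment over the 4. Each pair sets a gene that rose against a relative that did not pass, so the separation adds little to the calls of the single genes. Tktl1, at 4.88 in wild type and 4.91 in ISR2 mucosa, was among the dimmest 25% of genes (below 5.20). A ratio of this kind shows unequal change of the 2 genes and does not set their levels against each other.

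The enzymes that spend NADPH on lipids rose throughout. Of the 9 measured genes of this kind, 9 rose, with a median log2 change of 3.55, and the count was 9 in every alternative fit. Cyp51, the lanosterol demethylase, rose 23.3-fold (log2 change 4.54 ± 0.18, SE; adjusted p = 1.7e-06), and Sqle, squalene epoxidase, 16.7-fold. Tm7sf2, a sterol reductase, rose 14.2-fold and Fdft1, squalene synthase, 13.0-fold. The smallest rise in the list was that of Tecr, a reductase of fatty acid elongation, at 1.75 on the log2 scale. The log2 change of Me1, 3.22, lay within the range of this list, and those of Pgd, Tkt, Idh1 and Taldo1 lay below its smallest value.

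Citrate export and cleavage, which run together with malic enzyme, rose in 2 of the 14 measured genes of the citrate and malate shuttle. Acly, ATP citrate lyase, rose 10.4-fold (log2 change 3.38 ± 0.16, SE; adjusted p = 3.6e-06) and Slc25a1, the mitochondrial citrate carrier, 3.18-fold (1.67 ± 0.13; adjusted p = 0.000136). Both calls held without each array in turn. The malate dehydrogenases Mdh1 and Mdh2, at -0.31 and -0.20, did not pass. Aco1, the cytosolic aconitase that feeds Idh1, was at 0.63 ± 0.14 (SE; adjusted p = 0.0545), and Pcx, pyruvate carboxylase, at -0.54 ± 0.14 (SE; adjusted p = 0.0991). Without ISR2 replicate 2, Aco1 passed upward (adjusted p = 0.0376) and Pcx downward (0.0473).

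Around glucose 6-phosphate, the substrate of the pathway, 2 of 16 measured genes rose and 2 fell. Pfkm, a phosphofructokinase that commits sugar to glycolysis, rose 2.50-fold (log2 change 1.32 ± 0.18, SE; adjusted p = 0.00345). Slc37a4, the carrier of glucose 6-phosphate into the endoplasmic reticulum, rose 1.79-fold (0.84 ± 0.12; adjusted p = 0.00431). Pfkfb3, which makes the activator of phosphofructokinase, fell, with a log2 change of -1.03 ± 0.15 (SE; adjusted p = 0.00527). G6pc, the phosphatase that releases glucose, fell as well (-1.01 ± 0.20, SE; adjusted p = 0.0325), but lost its call when replicate 1 or 3 of either group was left out (adjusted p up to 0.157). The hexokinase genes Hk1, Hk2 and Hk3 lay between -0.16 and -0.07 and did not pass. Hkdc1, a further hexokinase gene, was at 0.53 ± 0.14 (SE, 95% interval 0.21 to 0.86) with separate groups, and did not pass either (adjusted p = 0.111). Pfkfb4, a relative of Pfkfb3, went the other way from it, at 0.62 ± 0.16 (SE) with separate groups, and did not pass (adjusted p = 0.085).

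Ribose use and the folate routes to NADPH held calls in opposite directions. Of 6 genes of ribose 5-phosphate use, 1 fell: Pgm2, which handles ribose 1-phosphate, with a log2 change of -0.92 ± 0.12 (SE; adjusted p = 0.00283). Prps1 and Prps2, which make phosphoribosyl pyrophosphate, lay at -0.31 and -0.48 (adjusted p = 0.416 and 0.622). Of 9 folate-linked and other mitochondrial genes 2 rose. Aldh1l1, the cytosolic formyltetrahydrofolate dehydrogenase that makes NADPH, rose 2.54-fold, from 8.91 ± 0.10 to 10.25 ± 0.20 (mean ± SD, n = 3; log2 change 1.34 ± 0.14, SE; adjusted p = 0.000903). Mthfd1l, a mitochondrial formate-making enzyme, rose 1.61-fold (adjusted p = 0.017); its call held without ISR2 replicate 2 and was lost in the other 5 fits without 1 array (adjusted p up to 0.0752), which left 1 rise in the list. Mthfd1, the trifunctional cytosolic enzyme, was at 0.17 and did not pass.

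Among genes of NAD and NADP synthesis, 1 of 10 rose. Nampt, which recycles nicotinamide into NAD, rose 2.16-fold (log2 change 1.11 ± 0.17, SE; adjusted p = 0.00791). Nadk and Nadk2, the kinases that turn NAD into NADP, were at 0.15 and -0.19, and neither passed. The NAD-forming adenylyltransferase genes Nmnat1 and Nmnat3 were at -0.44 and -0.55 (adjusted p = 0.209 and 0.0918).

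The enzymes that spend NADPH on redox reactions were divided. Of 14 measured, 3 rose and 1 fell, with a median log2 change of -0.07. Cbr3, a carbonyl reductase, rose 2.47-fold, Txnrd3, a thioredoxin reductase, 2.36-fold, and Gsr, glutathione reductase, 1.94-fold (adjusted p = 0.00678, 0.00274 and 0.0183). The call of Gsr did not hold on leaving out ISR2 replicate 1 or 3, or wild type replicate 1 or 2, where the adjusted p reached 0.107, which left 2 rises. Cyba, a subunit of the superoxide-making NADPH oxidases, fell, with a log2 change of -1.57 ± 0.25 (SE; adjusted p = 0.00973), a call lost without wild type replicate 1 (0.0583). Txnrd1, the cytosolic thioredoxin reductase, was at 0.02 and Nqo1, the quinone reductase, at 0.53, and neither passed.

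NRF2 is known to drive pentose phosphate genes in other settings, and a list of some other targets and regulators was read beside them. Genes already in the redox list, Gsr, Cbr3, Nqo1 and Txnrd1 among them, are not counted in it. Of 10 such targets and regulators, 1 rose: Gclc, the catalytic subunit of glutathione synthesis, 1.81-fold (log2 change 0.85 ± 0.13, SE; adjusted p = 0.0087). That call was lost without wild type replicate 1 (0.0533), which left 0 in the list. Hmox1, Gclm and Nfe2l2, which encode haem oxygenase 1, the second subunit of glutathione synthesis and NRF2 itself, were at 0.50, 0.37 and -0.25, and none passed (adjusted p = 0.0706, 0.263 and 0.508). The list's median was -0.03. At an unadjusted p of 0.05 in limma, 3 of the 10 were higher, Gclc included, and 0 lower. Of all 19938 genes tested, 943 were higher and 1675 lower at that level. With array weights, quantile normalization or a threshold of 0.1, 2 of the list rose. Over all 9 lists, 20 of the 100 measured genes rose and 4 fell, and 9 of the 20 rises were the lipid synthesis enzymes. Of all genes tested 1.79% rose and 1.23% fell.

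**Figure D4:**
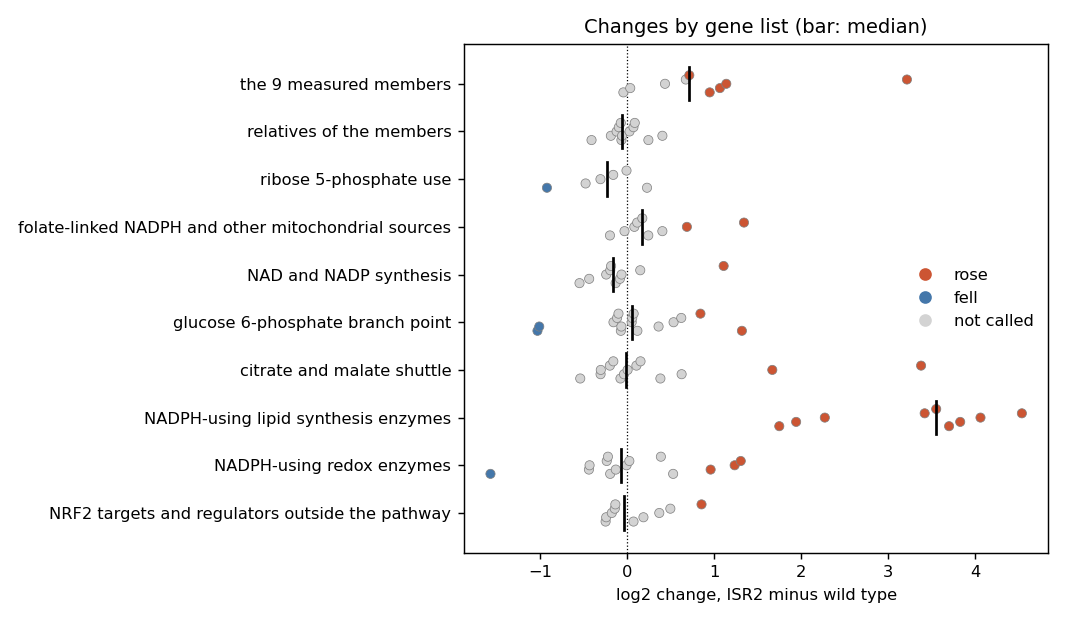
The log2 change of every measured gene, ISR2 minus wild type (horizontal axis), in the 9 NADPH and pentose phosphate genes (top) and in 9 surrounding lists (rows); red points rose, blue points fell, grey points did not pass, and the black bars are medians. The NADPH-using lipid synthesis enzymes lie wholly to the right, from 1.75 to 4.54, and the medians of the other 8 lists lie between -0.23 and 0.17.

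The genes whose array profiles lay closest to those of Me1, Pgd and Tkt, the members that rose at least 2-fold, were found by centring each gene on its own mean and taking the root mean square difference over the 6 arrays. For Me1 these were Idi1, isopentenyl diphosphate isomerase, Insig1, the sterol-responsive retention factor of the SREBPs, and Mvk, mevalonate kinase, at differences of 0.15, 0.15 and 0.19 on the log2 scale. For Pgd they were Dusp14, a phosphatase, Qdpr, which recycles tetrahydrobiopterin, and Cog1, a Golgi complex subunit, each at 0.07. For Tkt they were Gcat, Pgrmc2 and Taf1, at 0.09, 0.10 and 0.10. Since the difference between groups dominates these profiles, closeness is mainly closeness in the size of the change.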

How the data were processed

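Total RNA was labelled with biotin and hybridised to Affymetrix arrays by the whole-transcript protocol, per the labels' protocols. RMA was used by the authors to make the deposited log2 values, per the submitters' processing notes; the scale was inferred from the values, which span 1.44 to 14.83. RMA equalises the distributions of the arrays, so much of a shift shared by most genes is removed, and background can compress changes of dim genes. The version of RMA is not given in the sources. Array medians were 6.04 to 6.19, so a small shared shift remained. Of all genes tested, 7465 were higher and 12473 lower in ISR2 mucosa. Their median log2 change was -0.062, and -0.017 after centring each array on its median. That centring took the rises from 356 to 370 and the falls from 246 to 178.

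Of 35556 rows, 21789 carried 1 gene symbol, 1621 several and 12146 none. Rows with 1 symbol were used, the brightest row of each gene, which left 19938 genes. Symbols matched the GRCm38.p6 gene table by Entrez ID in 21698 rows, and 0 changed. Groups came from the sample titles.

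The fit used limma 3.58.1 (lmFit, then eBayes) under R 4.3.3, with no covariates; two-sided p-values were adjusted over all genes by Benjamini-Hochberg, and 0.05 was the threshold. The steps were tested on simulated data. Exact permutation tests used scipy 1.17.1; figures used matplotlib 3.10.9. The members, lists, motifs and pairs were chosen with earlier results of these data known. Named genes were all members, up to 4 genes of each surrounding list with the smallest p, and the 3 closest profiles of each member that passed with a log2 change of at least 1; other list genes were named for their role after their values were seen. Alternatives were leaving out the dimmest 25% of genes, testing all rows, averaging the rows of a gene, an intensity trend or the robust option in eBayes, array weights, quantile normalization, median centring, the replicate number as a block, thresholds of 0.1 and 0.01, and each array left out; a fit without 2 arrays was added after seeing the data.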

Additional observations from a re-analysis of the deposited data

How the results depend on the processing

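Me1, Pgd and Idh1 kept their rise in all 16 alternative fits, with log2 changes of 3.08 to 3.36, 1.05 to 1.29 and 0.91 to 1.02. The 16 include the fit without 2 arrays, added after seeing the data, which gave the 1.29 of Pgd. The number of members that rose was 3 with all rows tested and at an adjusted p of 0.01, and 3 to 5 without 1 array at a time. Leaving out ISR2 replicate 1 or wild type replicate 1 or 2 gave the 3. Without both wild type replicate 3 and ISR2 replicate 2 the number was 7, but that choice could only widen the differences of the added genes, Pgls and Rpia. Members that fell numbered 0 throughout. Over all genes, 602 passed; 1268 did so with array weights, 340 with all rows tested, 324 at an adjusted p of 0.01 and 335 to 589 without 1 array at a time. Of the genes in the surrounding lists, 4 fell; the number was 2 with all rows tested and 2 to 5 without 1 array at a time (2 without wild type replicate 1), while 18 to 21 rose. With single arrays left out the change of Rpe was -0.040 to 0.075 and that of Nnt -0.37 to 0.13; median centring put Nnt at 0.0017, and it was 0.062 without both wild type replicate 3 and ISR2 replicate 2. With array weights Rpia passed (0.82; adjusted p = 0.00699). Fits with fewer arrays have less power, and fits over more rows adjust over more tests; other causes were not tested.

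The replicate numbers were checked as pairs: the deviations of same-numbered arrays from their group means correlated at -0.02, 0.32 and 0.54 across genes. Wild type replicates 2 and 3 correlated best with the ISR2 array of the same number, and wild type replicate 1 with ISR2 replicate 2 (0.20). The titles give the arrays only a shared number, and whether same-numbered arrays were handled together was not tested. With the replicate number as a block, 6 members rose, Rpia being added (adjusted p = 0.029), and 778 genes passed.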
